A study of Mus musculus with 8 samples.

Results

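The genes described here were 8 protein-coding genes of mouse epidermis, *Ttc9*, *Acsm1*, *Pdzrn4*, *Ptprm*, *A4gnt*, *Trim15*, *Fam124b* and *Dexi*, taken from the 55416 genes of the deposited RNA-seq table. They were selected on their CPM in these same 8 libraries, because it separated the RoraEKO from the control libraries, with low levels in RoraEKO. The separation of the genotypes is therefore how the genes were found, and the levels below are a description that was not tested. A description of near loss held for 7 of the 8, which were below 10% of their control level, while *Dexi* kept 34.8% of it.

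RORα, the product of *Rora*, is a nuclear receptor that acts in the nucleus as a transcription factor. It binds DNA as a single molecule at the core motif AGGTCA, which it prefers with a stretch rich in A and T before it, and it mostly activates the genes it binds. It is best known for driving genes of the circadian clock, of lipid metabolism and of certain T cells, and in skin it is made by keratinocytes. The 8 genes have no common pathway. Their products handle proteins (*Ttc9*, *Pdzrn4*, *Trim15*), activate fatty acids (*Acsm1*), join neighbouring cells (*Ptprm*), build sugar chains (*A4gnt*) or are little studied (*Fam124b*, *Dexi*).

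The samples were dorsal epidermis of mice at postnatal day 4. RoraEKO mice came from a cross of a *Rora* flox/flox strain with a *K14-Cre* strain, in which the keratin 14 promoter drives the recombinase, so that the deletion is aimed at keratinocytes and leaves other cells of the epidermis with the gene. Control samples carried the label WT, and their *Cre* and flox alleles were not given any further. There were 4 libraries per genotype, here called by the letter and number of their titles, A1, B1, C1 and C6 for control and A3, B4, C2 and C3 for RoraEKO.

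The libraries held between 17286903 and 26705533 counts, and levels are given as counts per 1000000 after scaling (CPM). In CPM, 3 counts, used below as the floor, amounted to 0.113 to 0.196 depending on the library. *Rora* itself did not separate the genotypes, at 158, 193, 187 and 309 CPM in control and 154, 189, 237 and 206 CPM in RoraEKO, with a fitted log2 fold change of -0.11 and an adjusted p of 0.877 in the edgeR quasi-likelihood test, and a difference of mean log2 CPM of -0.08 ± 0.245 (SE, n = 4 per genotype). A count over the whole gene cannot tell a transcript without the deleted exons from an intact one. *Xist*, expressed from an inactive X chromosome and so a marker of female samples, was at 416 and 527 CPM in control C1 and C6. It was at no more than 0.0546 CPM in the other 6 libraries. By this marker the sexes were not balanced between the genotypes, so sex and genotype are partly mixed in this comparison. Of 13147 genes tested, 423 were lower and 302 higher in RoraEKO at an adjusted p below 0.05 and a fold change above 1.5, which is 5.51% called in either direction, 3.22% lower and 2.3% higher.

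The stretches before the start sites that hold AGGTCA are shown because this is the motif of the deleted receptor. In the windows of 250 bases before to 50 bases after each RefSeq start site, the motif was found on either strand for 3 of the 8 genes, *Acsm1*, *Trim15* and *Fam124b*, and for 4900 of 27025 genes with a window, or 18.1%. The longer form with AANT directly before AGGTCA, again on both strands, was found in 0 of 10 windows of the 8 genes and in 72 of 32851 windows in all, or 0.219%. Each match of the longer form also counts as an AGGTCA match. The sequences are from RefSeq (GRCm38.p6) and were located by exact match on GRCm39. They run 5′ to 3′ on the strand of the gene, and the capitals mark the motif, written AGGTCA on that strand and TGACCT where it lies on the other strand.
Acsm1, chr7:119216888-119216943, + strand: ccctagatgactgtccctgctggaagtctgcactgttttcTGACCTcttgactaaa
Trim15, chr17:37178132-37178345, - strand: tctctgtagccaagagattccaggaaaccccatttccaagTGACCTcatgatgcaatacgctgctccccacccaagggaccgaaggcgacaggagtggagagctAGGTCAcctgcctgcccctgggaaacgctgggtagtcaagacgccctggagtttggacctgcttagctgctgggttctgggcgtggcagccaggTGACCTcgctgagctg
Fam124b, chr1:80191664-80191719, - strand: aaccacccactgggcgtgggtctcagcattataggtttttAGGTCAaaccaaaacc

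The *Acsm1* motif lay 107 bases before the RefSeq start site, and in the GENCODE annotation this stretch falls in an intron, since the GENCODE gene starts 10786 bases further upstream. In *Fam124b* the motif lay 18 bases before the RefSeq start site, which is 4529 bases inside the GENCODE gene, and 3 of the 56 bases shown were exonic. *Trim15* held 3 motifs between 203 and 45 bases before the RefSeq start site used here, in a stretch whose last 14 bases were exonic. Another RefSeq start site of *Trim15* lies further downstream, and the same motifs are 226 to 68 bases before it. The windows of *Ttc9*, *Pdzrn4*, *Ptprm*, *A4gnt* and *Dexi* held no AGGTCA, which says only that these letters were not in these 300 bases.

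All 8 genes passed the filter on low counts, with at least 10 counts in every control library. In 6 of them, every RoraEKO library held 3 counts or fewer, so their remaining level was at the limit of what this depth shows. Among 12110 protein-coding genes tested, 39 had a mean below 10% of control in RoraEKO, and 7 of these 39 were the genes described here. The choice of genes fixed that they did not overlap between genotypes, which was so for 12.9% of all genes tested and, with RoraEKO lower, for 7.54%. Outside the rule, *A1bg*, *Ctla4* and *Npas2* had still lower shares of control than *Acsm1*, at 0%, 0.514% and 0.561%, and they were picked for mention after their values were seen.

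**Figure D1:**
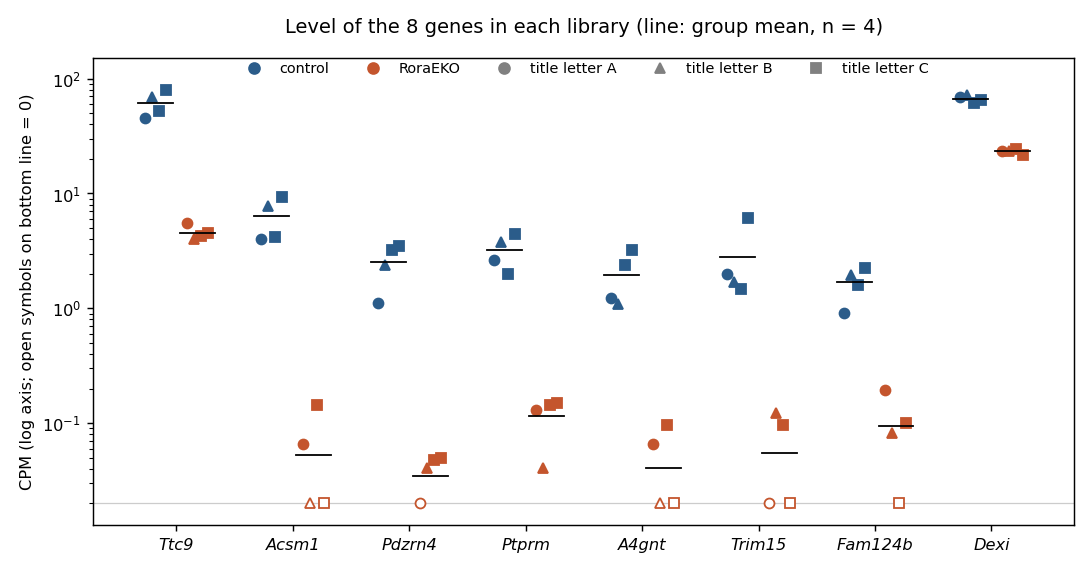
Level of each of the 8 genes in each of the 8 libraries, in CPM on a log axis, with control in blue, RoraEKO in orange, a bar for the mean of 4 libraries and symbols for the first letter of the sample title. Open symbols on the bottom line are libraries with 0 counts. In every gene all 4 control libraries sit above all 4 RoraEKO libraries, and *Dexi* has the narrowest gap.

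*Ttc9* (ENSMUSG00000042734, chr12:81677821-81714331, + strand, GRCm39) encodes a protein with tetratricopeptide repeats, a fold that binds partner proteins such as chaperones. Its level was 45.8, 69.6, 52.3 and 79.0 CPM in control A1, B1, C1 and C6, and 5.48, 3.99, 4.24 and 4.49 CPM in RoraEKO A3, B4, C2 and C3. The RoraEKO libraries still held 84 to 97 counts each, well above the floor, so a low level remained that this depth could measure. The means were 61.7 ± 15.3 and 4.55 ± 0.654 CPM (SD, n = 4), or 7.38% of control, a difference of -3.71 ± 0.206 on the log2 scale (SE). The lowest control library was 8.35-fold above the highest RoraEKO library.

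Of its paralogs only *Ttc9c* had enough counts to be tested, and it was not called. *Ttc9c* was at 10.3 ± 1.86 and 10.7 ± 1.95 CPM (log2 fold change 0.06, adjusted p = 0.931 in the edgeR quasi-likelihood test, n = 4 per genotype), and *Ttc9b* had 0 counts in control and 1 in RoraEKO over all libraries. None of the 10 tested genes within 500 kb of *Ttc9* was called, although in 4 of them, *Med6*, *S2bpcox16*, *Synj2bp* and *Cox16*, the groups did not overlap, with RoraEKO lower and log2 fold changes from -0.35 to -0.77. All but *Med6* of these 4 are named after their values were seen. Over all genes tested, 7.54% did not overlap with RoraEKO lower. *Med6*, a subunit of the Mediator complex 36019 bases upstream on the opposite strand, was at 9.12 ± 0.877 and 7.13 ± 0.723 CPM (adjusted p = 0.211 in the edgeR test), and *Map3k9*, a kinase gene 53453 bases downstream, was at 15.1 ± 1.0 and 19.4 ± 3.84 CPM (adjusted p = 0.237 in the edgeR test).

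*Pdzrn4* (ENSMUSG00000036218, chr15:92294762-92669700, + strand) encodes a protein with PDZ domains and a RING finger, the arrangement of a scaffold that can carry ubiquitin ligase activity. It was at 1.10, 2.40, 3.22 and 3.49 CPM in the control libraries in the order above, which were 29, 44, 68 and 93 counts. In RoraEKO it had 0 counts in A3 and 1 count in each of B4, C2 and C3. The ratio of the pooled levels was 68.0, with a 95% counting interval from 23.0 to 332. The gene spans 374939 bases, and 98.7% of the protein-coding genes tested have a shorter body.

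A long noncoding RNA gene, *Gm26760*, ends 4932 bases before *Pdzrn4* on the same strand, and it was the only one of the neighbours of the 8 genes within 500 kb that was called. It had 14, 15, 39 and 40 counts in control A1, B1, C1 and C6 and 0 in every RoraEKO library, at least 31.4-fold lower when 3 counts are set as the floor over the group (adjusted p = 0.00771, edgeR quasi-likelihood test). Both genes had their lowest control value in A1 and the highest in C6 (*Pdzrn4*) or C1 (*Gm26760*, 1.85 CPM). Whether reads of one transcript were assigned to both genes was not tested. Further upstream, *Cntn1*, a cell adhesion gene 54369 bases away, was at 1.42 ± 0.750 and 0.515 ± 0.288 CPM (adjusted p = 0.278 in the edgeR test), and *Gxylt1*, 467916 bases downstream, had a log2 fold change of 0.06.

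The other genes of this ligase family were not called. *Pdzrn3* was at 7.44 CPM in control and 5.25 CPM in RoraEKO (adjusted p = 0.686 in the edgeR test), and *Lnx1*, the most abundant of them in control, was at 29.5 ± 18 and 33.1 ± 14.3 CPM (adjusted p = 0.918 in the same test).

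*Trim15* (ENSMUSG00000050747, chr17:37171583-37178145, - strand) encodes a tripartite motif protein with a RING finger that is found at focal adhesions, the sites where cells hold on to the matrix. Its control levels were 1.98, 1.69, 1.47 and 6.16 CPM, so C6 alone stood above the other 3 control libraries. In RoraEKO it had 0, 3, 2 and 0 counts in A3, B4, C2 and C3. The means were 2.82 ± 2.23 and 0.0549 CPM, or 1.94% of control, with a ratio of pooled levels of 48.4 (95% counting interval 20.5 to 150). With C6 left out, the log2 difference was -3.67 in place of -4.16 and the ratio 27.9, and without RoraEKO B4 the ratio was 84.5.

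The gene lies in a cluster of TRIM genes next to the major histocompatibility complex. *Trim26* lies 1293 bases downstream on the opposite strand and was at 31.6 ± 3.01 and 22.9 ± 2.15 CPM, with groups that did not overlap but an adjusted p of 0.0515 (edgeR). *Trim40*, 14345 bases upstream, was at 11.1 ± 1.91 and 13.4 ± 6.14 CPM (adjusted p = 0.720 in the edgeR test). The other TRIM genes taken were the 56 whose symbol is Trim and a number with no letter after it. Of these, 32 were tested, and 3 were lower and 2 higher in RoraEKO, or 15.6% called beside 5.51% of all genes tested. The middle log2 fold change of the 32 was 0.21, where that of all genes tested was -0.04.

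The TRIM genes that fell were *Trim2*, *Trim3* and *Trim37*. *Trim3* went from 29.1 ± 6.85 to 11.3 ± 1.78 CPM (-1.37 on the log2 scale, with an adjusted p of 0.00327 in the edgeR quasi-likelihood test) and *Trim2*, its close relative and a ubiquitin ligase known from neurons, from 82.1 ± 19.9 to 34.4 ± 7.66 CPM (-1.26, adjusted p = 0.00690). *Trim37* and *Trim11* passed narrowly, at -0.81 and 0.59 on the log2 scale, where the edgeR test gave adjusted p-values of 0.0497 and 0.0499. *Trim16* rose from 11.2 ± 3.94 to 23.6 ± 5.36 CPM (1.07, adjusted p = 0.0384), although its control library A1, at 17.1 CPM, lay above RoraEKO library A3, at 15.9 CPM. The call of *Trim16* ended with *Xist* as a covariate (adjusted p = 0.178 in the edgeR test) and without control B1, C1 or C6 or RoraEKO B4, C2 or C3 (0.0797 to 0.119). Without 1 library the adjusted p ran from 0.0195 to 0.170 for *Trim37* and from 0.0284 to 0.132 for *Trim11*. *Trim29*, the most abundant in control, was at 787 ± 65.7 and 788 ± 104 CPM. None of 17 other genes of focal adhesions was called, where *Coro1b*, the most abundant of the list in control, was at 93.2 ± 14.8 and 87.9 ± 6.66 CPM.

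*Acsm1* (ENSMUSG00000033533, chr7:119206249-119261738, + strand) encodes a mitochondrial enzyme that attaches coenzyme A to medium-chain fatty acids, the step that readies them for further use. Control libraries held 105, 142, 88 and 248 counts, or 4.00, 7.76, 4.17 and 9.31 CPM. The RoraEKO libraries A3, B4, C2 and C3 held 1, 0, 3 and 0 counts. The mean was 6.31 ± 2.65 CPM in control and 0.0525 CPM in RoraEKO, 0.832% of control and the lowest share among the 8 genes. The ratio of pooled levels was 127, but with only 4 counts in RoraEKO its 95% counting interval ran from 49.3 to 468. As 3 of these 4 counts were in C2, the ratio without that library was 377 (95% counting interval 67.4 to 14911).

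*Acsm1* sits in a cluster of paralogs, of which only *Acsm3*, 98399 bases downstream, was tested. *Acsm3* had 195 counts in control and 131 in RoraEKO, with a log2 fold change of -0.15 and an adjusted p of 0.967 in the edgeR test. The nearest tested neighbour, *Thumpd1*, 52376 bases downstream on the opposite strand, was at 50.01 ± 5.49 and 41.1 ± 4.84 CPM (adjusted p = 0.272, edgeR). Among genes with too few counts to test, and picked after their values were seen, *Acsm2*, 6336 bases upstream, had 8 counts in all control libraries together and 0 in RoraEKO, *Acsm5* had 6 and 0, *Pdilt* 26 and 1, and the long noncoding *Gm26967* 19 and 0. The opposite-strand *Gm45792*, which shares 27 exonic bases with *Acsm1*, had 6 and 0, and *Gm39079*, also on that strand, had 3 and 0. At these counts the differences of the single genes cannot be read with any precision.

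The wider family of enzymes that load fatty acids onto coenzyme A had 15 tested genes, of which 3 were lower and 0 higher. That is 20% called, where 5.51% of all genes tested were called and 3.22% were lower. *Acsl6*, a long-chain synthetase, went from 15.5 ± 8.84 to 1.32 ± 1.26 CPM (-3.55, adjusted p = 0.0352, edgeR quasi-likelihood test), *Acsl4*, which favours arachidonic acid, from 19.4 ± 1.88 to 10.2 ± 1.72 CPM (-0.94, adjusted p = 0.00568), and the fatty acid transporter gene *Slc27a1* from 15.7 ± 2.47 to 8.39 ± 2.18 CPM (-0.91, adjusted p = 0.0355). The median of the 15 was -0.03, close to the -0.04 of all genes tested, and *Acsbg1*, the most abundant in control, was at 362 ± 107 and 257 ± 61.7 CPM (adjusted p = 0.316 in the edgeR test). The calls of *Acsl6* and *Slc27a1* ended with *Xist* as a covariate (adjusted p = 0.114 and 0.0859 in the edgeR test). They also ended without control B1 (0.0870 and 0.0854), control C6 (0.0853 and 0.0913), RoraEKO A3 (0.0833 and 0.0891), C2 (0.0702 and 0.0650) or C3 (0.0569 and 0.0569), that of *Acsl6* without control C1 (0.0720) and that of *Slc27a1* without control A1 (0.0556).

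*Ptprm* (ENSMUSG00000033278, chr17:66973841-67662085, - strand) encodes a receptor tyrosine phosphatase whose outer part binds the same protein on the next cell and whose inner part associates with cadherin complexes. The control libraries were at 2.63, 3.77, 1.99 and 4.43 CPM, from 42 to 118 counts. The RoraEKO libraries held 2, 1, 3 and 3 counts, and it was the only gene of the 6 lowest with a count in each of them. The means were 3.20 ± 1.10 and 0.116 ± 0.0509 CPM, or 3.64% of control, with a ratio of pooled levels of 28.8 (95% counting interval 15 to 63.7). Its body of 688245 bases was longer than that of 99.7% of protein-coding genes tested. *Themis3*, the nearest tested coding gene downstream at 72211 bases, was at 1.08 ± 0.958 and 0.854 ± 0.652 CPM, and no coding gene upstream within 500 kb was tested.

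A relative of the same subfamily fell as well. *Ptprk*, likewise an adhesion receptor, was at 28.7, 17.4, 15.1 and 22.4 CPM in control and 11.4, 8.55, 7.08 and 9.64 CPM in RoraEKO. The groups did not overlap, the edgeR quasi-likelihood test gave a log2 fold change of -1.19 with an adjusted p of 0.013, and this p was 0.0544 without RoraEKO C2. *Ptpru*, the other tested member of the subfamily, was not called, at 0.707 and 1.2 CPM (adjusted p = 0.521 in the edgeR test), and *Ptprt* had 1 and 5 counts in all. *Ptprz1*, a receptor phosphatase of another subfamily, rose from 16.6 ± 7.39 to 53.2 ± 12 CPM (1.68, adjusted p = 0.0188), and was not called without control B1 (adjusted p = 0.0721) or RoraEKO C3 (0.0584, edgeR). *Ptprf*, the most abundant in control, was at 280 ± 48.6 and 242 ± 15.5 CPM. None of 6 cadherin and catenin genes was called, with *Jup*, encoding plakoglobin, at 1196 ± 91.1 and 1541 ± 218 CPM.

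Since *Ptprm* is also made by endothelial cells, their markers were examined. Of 9 endothelial markers, 1 was abundant enough to test and 0 were called, and their summed level ran from 0.757 to 2.21 CPM in control and from 1.04 to 4.58 CPM in RoraEKO. Of 8 markers of dermal fibroblasts, 4 were tested and 1 was called, higher in RoraEKO, and their sum ran from 24.0 to 31.3 CPM in control and from 42.3 to 60.3 CPM in RoraEKO. Of 7 markers of spinous and granular keratinocytes, which show the tissue as labelled, 0 were called, and they summed to 52970 to 78458 CPM in control and 92606 to 114606 CPM in RoraEKO. Of the markers of 8 other cell types, 0 were called, and their sums overlapped between genotypes, at 35.2 to 297 and 24.6 to 129 CPM for sebocytes, 25.6 to 57.2 and 17.6 to 34.4 CPM for melanocytes, 16.9 to 42.2 and 15.2 to 60.2 CPM for T cells, 232 to 299 and 227 to 288 CPM for Langerhans and myeloid cells, and 4.31 to 9.20 and 5.79 to 10.02 CPM for skeletal muscle. For adipocytes the sums were 59.3 to 299.7 and 90.01 to 159 CPM, for basal keratinocytes 247 to 596 and 270 to 1198 CPM, and for hair follicle keratinocytes 4040 to 31733 and 8215 to 21038 CPM. Only 1 of 5 adipocyte markers and 2 of 6 skeletal muscle markers were tested, so 0 calls there rest on few genes. The part of these values in the levels of the 8 genes was not tested. In these bulk samples fewer cells of a type and less RNA per cell cannot be told apart.

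*A4gnt* (ENSMUSG00000037953, chr9:99494555-99504420, + strand) encodes a Golgi glycosyltransferase that caps mucin sugar chains with an N-acetylglucosamine, a modification known from the glands of the stomach. Its control levels were 1.22, 1.09, 2.37 and 3.19 CPM, so the C libraries were above the A and B libraries. RoraEKO A3, B4, C2 and C3 had 1, 0, 2 and 0 counts. The means were 1.97 ± 0.997 and 0.0404 CPM, 2.05% of control, with a ratio of pooled levels of 54.3 (95% counting interval 18.3 to 266), which was 121 without RoraEKO C2.

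Genes of stomach mucins were near absent from both genotypes, with 3 counts of *Muc6* and 1 of *Muc5ac* over all 8 libraries. *Tff2*, the gene of a peptide secreted in the stomach, had 0 counts. The list of 28 genes of mucin-type sugar chains also held these stomach genes and *A4galt*. Of the 28, 14 were tested, 1 was lower and 1 higher, or 14.3% called beside 5.51% of all genes tested. *Galnt3*, which starts such chains, rose from 4.70 ± 1.33 to 13.3 ± 3.96 CPM (1.5, adjusted p = 0.0104, edgeR quasi-likelihood test), while *Galnt16*, of the same enzyme family, fell from 0.805 ± 0.284 to 0.191 ± 0.114 CPM (-2.05, adjusted p = 0.0403). The call of *Galnt16* ended with *Xist* as a covariate (adjusted p = 0.126 in the edgeR test), with all genes of at least 1 count tested (0.0756), and without control B1 (0.124), control C1 (0.107), RoraEKO A3 (0.0903), B4 (0.114) or C2 (0.129). *Galnt6*, the most abundant in control, was at 97.4 ± 18.3 and 170 ± 58.3 CPM (adjusted p = 0.0852 in the same test). *A4galt*, which encodes a galactosyltransferase acting mainly on glycolipids, was at 31.7 ± 8.83 and 5.51 ± 4.95 CPM without overlap of the groups, but its adjusted p was 0.0575, and it is mentioned after its values were seen. The neighbours *Dbr1*, 27500 bases upstream (8.02 ± 0.911 and 7.10 ± 0.513 CPM), and *Dzip1l*, 7129 bases downstream (1.79 ± 0.590 and 1.67 ± 0.551 CPM), were not called, with log2 fold changes of -0.18 and -0.09.

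*Fam124b* (ENSMUSG00000043230, chr1:80173149-80196190, - strand) encodes a little studied protein that has been found with the chromatin remodellers CHD7 and CHD8. It had 24, 36, 34 and 60 counts in control, or 0.914, 1.97, 1.61 and 2.25 CPM, and 3, 2, 0 and 2 counts in RoraEKO. Library A1 was the lowest control and A3 the highest RoraEKO library, and the distance between them was 4.67-fold, the smallest after *Dexi*. The means were 1.69 ± 0.578 and 0.0944 CPM, or 5.60% of control, with a ratio of pooled levels of 19.2 (95% counting interval 9.08 to 48.5). Its paralog *Fam124a* was not tested, with 2 counts in control and 12 in RoraEKO. *Chd7* was at 49.4 ± 4.20 and 38.7 ± 5.34 CPM (log2 fold change -0.35, adjusted p = 0.177 in the edgeR test), and *Cul3*, a ubiquitin ligase scaffold 46449 bases upstream of *Fam124b*, was at 173 ± 18.1 and 141 ± 18 CPM (-0.29, adjusted p = 0.302). The nearest tested coding gene on the other side, *Mrpl44*, was 413981 bases away and had a log2 fold change of -0.32.

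*Dexi* (ENSMUSG00000038055, chr16:10317760-10360990, - strand) encodes a small protein whose transcript was first described as induced by dexamethasone, a glucocorticoid. It differed from the other 7 genes in the share of the control level that remained and in the spread of its libraries. The control libraries were at 69.5, 71.5, 61.9 and 64.7 CPM and the RoraEKO libraries at 23.6, 23.6, 24.4 and 21.4 CPM. The means were 66.9 ± 4.38 and 23.3 ± 1.28 CPM, a log2 difference of -1.52 ± 0.0623 (SE), and the coefficient of variation in control was 6.55%, against 24.8% to 79.0% in the other 7. Every RoraEKO library held at least 362 counts, so this remaining level was far above the floor.

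*Dexi* overlaps *Ciita*, the master regulator of MHC class II genes, which lies on the opposite strand and shares 633 exonic bases with it. *Ciita* was at 0.987 ± 0.369 and 0.655 ± 0.102 CPM (-0.58, adjusted p = 0.425, edgeR quasi-likelihood test), with groups that overlapped. The kit kept the strand of the RNA, but whether the counting used it was not stated, so reads of the shared bases may have been assigned to either gene. *Clec16a*, which starts 2213 bases upstream in the opposite direction, was at 40.1 ± 3.47 and 33.5 ± 2.79 CPM, a log2 fold change of -0.26 with an adjusted p of 0.249 in the same test, and its groups did not overlap. *Nubp1*, 74567 bases downstream, was at 10.4 ± 1.89 and 12.8 ± 2.73 CPM.

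**Figure D2:**
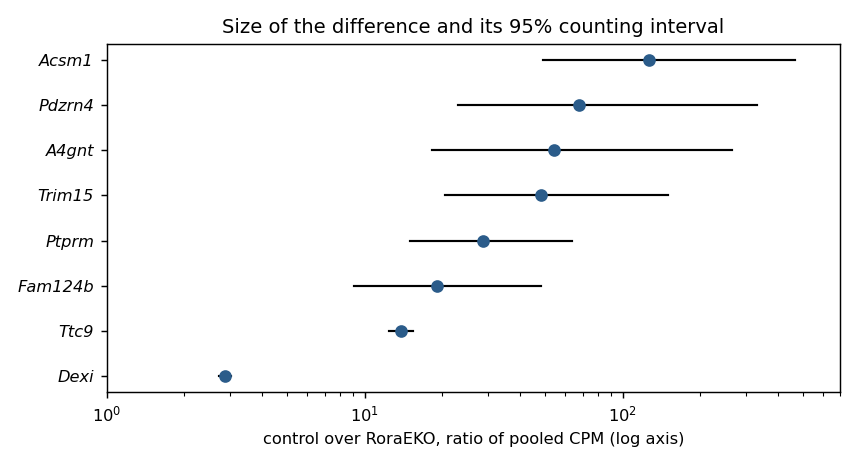
Ratio of the pooled control level to the pooled RoraEKO level of each of the 8 genes on a log axis, with the 95% interval from counting error as a line. *Acsm1* is highest at 127 and *Dexi* lowest at 2.87, and neighbours in the order from *Ttc9* upward have overlapping intervals.

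The ratios of pooled levels ran from 2.87 for *Dexi* (95% counting interval 2.72 to 3.02) and 13.8 for *Ttc9* (12.4 to 15.4) to 127 for *Acsm1*. From *Ttc9* upward, neighbours in this order had overlapping intervals, so the order of such neighbours is not set at this depth. Per kilobase of exon, control levels went from 11.4 CPM for *Ttc9*, higher than in 84.0% of the protein-coding genes tested, and 4.77 CPM for *Dexi*, through 2.10 CPM for *Acsm1* and 1.41 CPM for *Trim15*, down to 0.205 CPM for *Ptprm*, higher than in 10.2%. The median of all protein-coding genes tested was 2.03 CPM per kilobase, so the 8 genes lay on both sides of it. They lie on 7 chromosomes, and gene bodies ran from 6563 bases in *Trim15* to 688245 bases in *Ptprm*, around a median of 25458 bases for all protein-coding genes tested.

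The titles give each library a letter, and each letter holds both genotypes, although the labels do not say what it stands for. The choice of genes without overlap fixed that RoraEKO was lower within each of the 3 letters, so only the sizes are described. The log2 difference of *Dexi* was -1.55, -1.59 and -1.47 in A, B and C, while that of *Fam124b* was -1.80, -3.56 and -3.90 and that of *Ttc9* -3.04, -4.10 and -3.85. In letters A and B, no library of either genotype had *Xist* above 0.0546 CPM, while in C both control libraries did. The differences in A, B and C were -4.70, -6.41 and -5.42 for *Acsm1* and -3.61, -4.85 and -3.68 for *Ptprm*. They were smaller in A and B than in C for *A4gnt* (-3.05, -3.68 and -4.43), *Pdzrn4* (-3.69, -4.22 and -4.60) and *Trim15* (-4.48, -3.05 and -4.56), as they were for *Fam124b*. With *Xist* as a covariate the log2 differences were -3.30 for *A4gnt*, -3.75 for *Pdzrn4*, -3.81 for *Trim15*, -3.03 for *Fam124b*, -3.60 for *Ttc9*, -5.39 for *Acsm1*, -3.97 for *Ptprm* and -1.60 for *Dexi*. Without it they were -3.90, -4.28, -4.16, -3.29, -3.71, -5.48, -3.95 and -1.52 in the same order. These log2 differences use a prior count of 2, which draws genes with few counts toward 0.

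**Figure D3:**
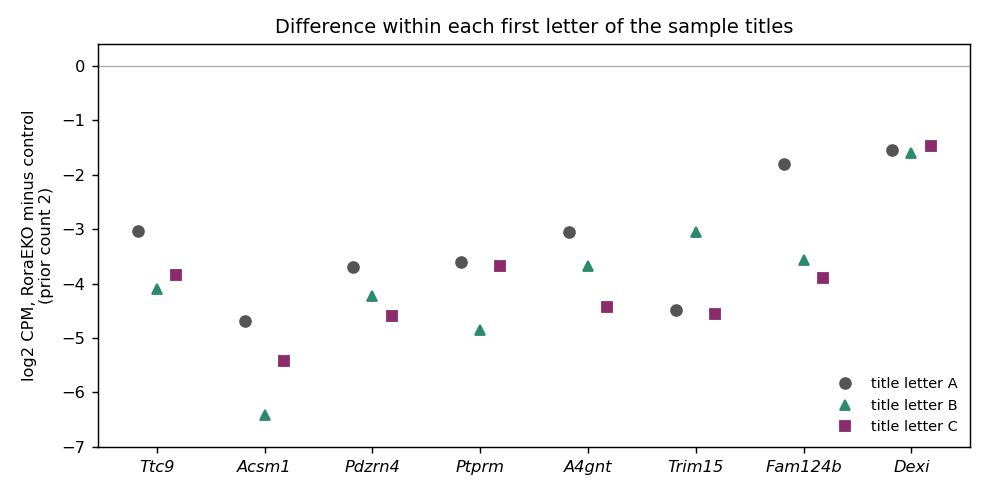
Difference of log2 CPM (prior count 2), RoraEKO minus control, for each of the 8 genes within libraries that share the first letter of the title, with 1 library per genotype in A and B and 2 in C. All differences are below 0, and those of *Dexi* are close together while those of *Fam124b* spread from -1.80 to -3.90.

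Within 500 kb of the 8 genes there were 246 annotated genes, of which 50 were tested. Of these, 1 was lower (*Gm26760*) and 0 higher, 2% beside 5.51% of all genes tested. Among 50 genes, 1 call is too few to be set apart from that share. The median log2 fold change of the 50 was -0.24, beside -0.04 over all genes, and 33 of the 50 were below 0. Groups did not overlap in 9 of the 50, with RoraEKO lower in each, where 7.54% of all genes tested were so. Genes annotated on the strand opposite to *Ptprm*, *Pdzrn4* and *Fam124b* and overlapping them had at most 1 count over all libraries.

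**Figure D4:**
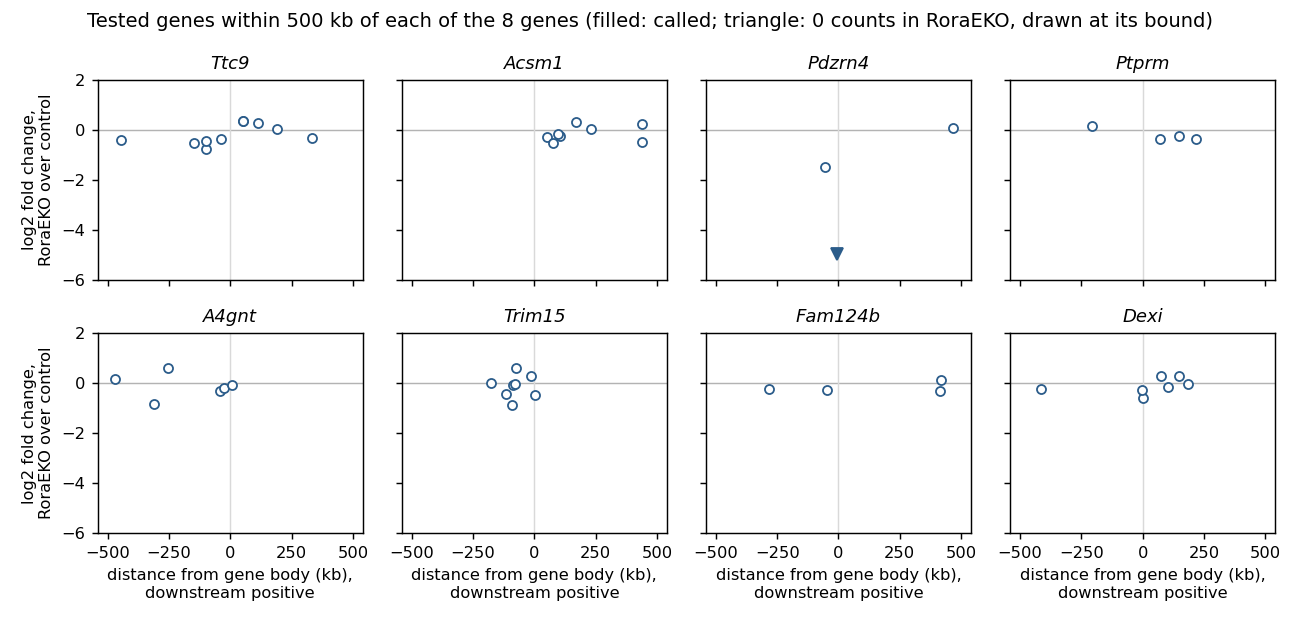
Log2 fold change, RoraEKO over control, of the 50 tested genes within 500 kb of the 8 genes, against their distance in kilobases from the gene body, downstream positive, with 1 panel per gene. Filled symbols were called. *Gm26760*, with 0 counts in RoraEKO, is the triangle near *Pdzrn4*, drawn at its bound of 31.4-fold, and the other points are open. In all, 33 of the 50 lie below 0.

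Across all lists of paralogs and partners, 159 genes were named, 157 were found in the table and 101 were tested. Of these, 8 were lower and 4 higher, or 11.9% where 5.51% of all genes tested were called. With *Xist* as a covariate 6 of the 101 were called, while over all 13147 genes 290 were lower and 182 higher. Without control B1 5 of 104 were called, while over all 13555 genes tested 283 were lower and 174 higher. The lists had 6 calls without RoraEKO C2 and 7 without control C1, control C6 or RoraEKO C3. Calls over all genes fell in these settings as well. The middle value of their log2 fold changes was 0.11.

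The genes whose pattern over the 8 libraries was most like the mean pattern of the 8 were found by the root mean square difference of log2 CPM after each gene's control mean was subtracted. These were *Grin2d*, a glutamate receptor subunit (0.34 on the log2 scale), *Nr1d1*, the nuclear receptor REV-ERBα (0.34), *Fam83d* (0.35), the long noncoding *Gm50222* (0.37) and *Zfyve28* (0.39). *Grin2d* was at 8.43 ± 1.36 and 0.491 ± 0.253 CPM, *Nr1d1* at 18.2 ± 4.87 and 1.10 ± 0.351 CPM and *Fam83d* at 27.2 ± 12.6 and 2.02 ± 0.567 CPM. Among the 8 themselves, *Ttc9* was closest to their mean, at 0.17, and *Dexi* farthest, at 1.63. These genes were found by the same contrast and share its libraries, so their likeness is a description.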

How the data were processed

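RNA-seq libraries (TruSeq Stranded mRNA) of 8 epidermis samples were analysed, 4 per genotype. The authors converted raw data with bcl2fastq 2.20.0.422, trimmed the reads with Skewer, aligned the pairs to GRCm39 by STAR 2.5.3a and estimated counts per gene with RSEM. They deposited these expected counts without normalization. Whether counting used the strand, and the annotation release, are not given in the sources used here.

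Expected counts were rounded. Of 55416 identifiers, 54749 were found in GENCODE release 39, which gave symbols and positions. Genes were filtered with filterByExpr, scaled with TMM factors and compared by edgeR 4.0.16 in R 4.3.3, using its quasi-likelihood test in the legacy form, with Benjamini-Hochberg adjustment over the 13147 genes left and cutoffs of 0.05 and 1.5-fold. The fit was tested on simulated data. CPM used the TMM factors, log2 CPM a prior count of 2, and SE refers to the difference between the genotypes' mean log2 CPM. Levels per kilobase used the union of annotated exons. Intervals of pooled ratios and floors cover counting error only. The labels do not say that samples came from separate litters, so p-values measure the spread between these samples.

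The 8 genes and all lists were chosen with earlier results of these data known. Besides the 8 and *Rora*, the genes named were those overlapping them, the nearest tested coding gene on each side, called genes within 500 kb, called and most abundant genes of each list, and the 5 most alike. *Ttc9b*, *Pdzrn3*, *Ptpru*, *Ptprt*, *Fam124a*, *Muc6*, *Muc5ac*, *Tff2* and *Xist* are named after their values were seen, as are others where the text says so. The alternatives were RLE factors, library size alone, DESeq2 1.42.0, the non-legacy and likelihood ratio forms of edgeR, filters of at least 1 count in all and of 10 in every library, the title letter as a block, *Xist* as a covariate, a prior count of 0.5, a window of 100 kb and each library left out. Leaving a library out of the pooled ratios was added after seeing the data. *Ptprg* and *Acsm6* were not analysed here. One further list of related genes is not reported here.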

Additional observations from a re-analysis of the deposited data

Results flagged for a closer look

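In 2 of 37 groups of 4 libraries examined, the highest library lay farther from the next than the range of the group would allow by Dixon's criterion at 95%, and chance alone flags about 1 in 20 groups. *Trim15* was at 6.16 CPM in control C6, where the next highest control library was at 1.98 CPM. *Trim16* was at 17.1 CPM in control A1, where the next highest was at 9.91 CPM.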

How the results depend on the processing

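The choice of the 8 genes fixed the direction of their differences. A prior count of 0.5 moved 6 of them by more than 1 SD of log2 CPM within a genotype, and gave -6.80 for *Acsm1*, -5.48 for *Pdzrn4*, -4.57 for *Ptprm*, -5.21 for *A4gnt*, -5.42 for *Trim15* and -4.17 for *Fam124b*. *Gm26760* was called wherever it was tested. The 423 lower calls ranged from 283 to 579, and without 1 library from 283 to 513. The 302 higher calls became 478 with DESeq2 and 182 with *Xist* as a covariate, and ranged from 174 to 383 without 1 library. Calls near the 8 genes were 2 with DESeq2 and 0 with at least 10 counts in every library, where *Gm26760* was not tested, and 1 to 2 without 1 library. Calls among paralogs and pathway genes, 12 in the fit above, were 6 with *Xist* as a covariate and 5 to 12 without 1 library. They were 5 without control B1, 6 without RoraEKO C2, and 7 without control C1, control C6 or RoraEKO C3. These counts can include genes outside the 12, such as *A4galt* without RoraEKO C2 (adjusted p = 0.0279 in the edgeR test). *Acsl4*, *Galnt3*, *Trim2* and *Trim3* were called under all 17 alternatives. Calls were lost in 7 alternatives each for *Acsl6*, *Slc27a1*, *Galnt16* and *Trim16*, in 10 for *Trim11* and in 11 for *Trim37*, and *A4galt* was called in 8. The log2 fold change of *Rora* turned to 0.18 with *Xist* as a covariate, 0.15 without control C6 and 0.04 without RoraEKO A3, ranged from -0.23 to 0.15 without 1 library, and was not called in any. Titles share a letter but no replicate number. No label says what the letter marks. With the letter as a replicate block, 579 genes were lower and 420 higher, 2 were called near the 8 and 15 among paralogs and pathway genes, and the differences of the 8 genes could not move. The cause of these changes was not tested. Depth limits the 6 genes with 3 counts or fewer per RoraEKO library to the wide intervals given.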
